A study of Homo sapiens with 12 samples.

Results

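Integrins are paired receptors, each made of an alpha and a beta chain, that hold a cell to the extracellular matrix. On the inside of the membrane talin binds and activates the beta chain, and the kinase FAK and the scaffold paxillin gather at the resulting focal adhesion and signal from it. Serum response factor (SRF) is a DNA-binding protein whose cofactors sense actin or growth signals, and many of its known targets encode cytoskeleton and adhesion proteins. The genes described here are 7 integrin chains, the alpha chains ITGAV, ITGA1, ITGA2, ITGA3 and ITGA6 and the beta chains ITGB1 and ITGB5, with PTK2 (FAK), PXN (paxillin) and TLN1 (talin).

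The members were all probe sets of the platform table that name 1 of these 10 genes and no other gene. The 10 genes are among 19775 genes with such a probe set, and their probe sets numbered 29 of the 54675 probe sets on the arrays. Of these, 16 had a log2 signal above 4 on at least 3 of the 12 arrays and entered the tests, which covered 21526 probe sets. All 16 stand for 8 genes, since no probe set of ITGA1 or ITGA3 passed.

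The study measured RNA on expression arrays in LNCaP, an androgen-sensitive human prostate adenocarcinoma line. Cells were kept without androgen for 48 h, transfected with control siRNA or with siRNA against SRF, and from 42 h after transfection given either 5 nM R1881, a synthetic androgen, or ethanol vehicle for 48 h. The 4 groups of 3 arrays were thus control siRNA with vehicle, control siRNA with R1881, SRF siRNA with vehicle and SRF siRNA with R1881, and the comparisons ask what R1881 and what silencing of SRF changed, each with and without the other. The labels call the 3 arrays of a group biological replicates and do not say that they came from separate cultures, so every p-value here reflects how far these arrays differ among themselves, which may be technical.

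The SRF probe set above the filter had a mean log2 signal of 6.07 with control siRNA and 4.74 with SRF siRNA in vehicle, which left 39.5% of the signal, and 36.9% was left in R1881. Of 11 luminal prostate markers 9 had a probe set of their own and all 9 passed the filter, among them KLK3 and KRT18. Of 8 measured markers of leukocytes none passed, while 1 of 8 of basal or mesenchymal lines (VIM), 2 of 9 of fibroblasts (COL1A1 and COL3A1) and 1 of 5 of endothelium (VWF) did. The summed linear signal of the basal or mesenchymal list was 148 to 157 in control vehicle arrays, 121 to 127 in control R1881 arrays, 246 to 266 in SRF siRNA vehicle arrays and 313 to 387 in SRF siRNA R1881 arrays, and VIM, its only passing marker, rose with silencing, from a mean of 6.76 to 7.74 in vehicle and from 6.31 to 8.25 in R1881. The basal keratin KRT5 stayed under 2 on the log2 scale on every array. For fibroblasts the sums were 169 to 202, 111 to 132, 297 to 356 and 104 to 122 in the same order. Endothelial sums were 100 to 109, 55.8 to 68.6, 70.5 to 77.5 and 57.1 to 63.1, and leukocyte sums 46.0 to 49.4, 46.8 to 48.5, 47.1 to 48.2 and 52.3 to 69.9. Luminal sums were 24332 to 25657, 79121 to 79855, 23803 to 24125 and 53522 to 53986. The part of these lists in the results below was not tested.

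RNA quality moved with the groups as well. For the GAPDH control transcript, the 3-prime minus the 5-prime log2 signal was 0.14 ± 0.09 in control vehicle, 0.46 ± 0.02 in control R1881, 0.36 ± 0.04 in SRF siRNA vehicle and 0.49 ± 0.14 in SRF siRNA R1881 (SD, n = 3 each). Control vehicle did not overlap control R1881 or SRF siRNA vehicle (exact two-sided permutation p = 0.1 each, the smallest that 3 against 3 arrays can give). For ACTB the same measure rose with silencing without overlap, by 0.32 in vehicle and by 0.31 in R1881 (exact two-sided permutation p = 0.1 each), and GAPDH differed by 0.03 between the R1881 groups (exact two-sided permutation p = 0.8). The part of RNA quality in the results below was not tested beyond the GAPDH fit. The third array of SRF siRNA R1881 stood apart, at 0.64 for GAPDH and 2.21 for ACTB, where the other 11 arrays lay between 1.26 and 1.84 for ACTB. Each member call that was lost without the third array of both SRF siRNA groups is given with its value there. Each member call that was lost with the GAPDH difference as a covariate is also given with its value in that fit.

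The upstream sequences of the genes that moved most are shown first, because both factors under study act on DNA. The RefSeq promoter table (GRCh38.p14) held 14 windows for 8 of the 10 genes and none for ITGA3 or PTK2. The lines below give the 250 bases before the outermost start site of ITGAV on chr2:186589806-186590055 (plus strand), of ITGB5 on chr3:124901419-124901668 (minus strand) and of ITGA2 on chr5:52989102-52989351 (plus strand), all 3 called higher with R1881, and of TLN1 on chr9:35732196-35732445 (minus strand), which was called lower after silencing. Each runs 5′ to 3′ along the gene, and capitals mark GGGCGG (the core of an Sp1 site) and GGAAGT (the core of an ETS factor site, the family of the ternary complex cofactors of SRF) on either strand.
ITGAV: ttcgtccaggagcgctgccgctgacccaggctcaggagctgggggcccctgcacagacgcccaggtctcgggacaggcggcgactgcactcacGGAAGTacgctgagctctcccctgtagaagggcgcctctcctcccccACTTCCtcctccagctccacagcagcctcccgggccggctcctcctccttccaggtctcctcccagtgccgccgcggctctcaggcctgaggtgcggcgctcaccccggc
ITGB5: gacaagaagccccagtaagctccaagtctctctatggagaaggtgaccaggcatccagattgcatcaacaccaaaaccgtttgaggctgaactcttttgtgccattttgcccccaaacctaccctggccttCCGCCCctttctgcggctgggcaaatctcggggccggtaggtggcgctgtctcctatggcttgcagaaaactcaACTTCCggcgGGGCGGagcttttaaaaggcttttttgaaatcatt
ITGA2: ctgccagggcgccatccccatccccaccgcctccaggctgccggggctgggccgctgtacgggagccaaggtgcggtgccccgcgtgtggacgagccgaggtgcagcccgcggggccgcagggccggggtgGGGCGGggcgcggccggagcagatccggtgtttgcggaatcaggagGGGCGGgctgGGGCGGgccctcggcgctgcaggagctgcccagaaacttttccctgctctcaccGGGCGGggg
TLN1: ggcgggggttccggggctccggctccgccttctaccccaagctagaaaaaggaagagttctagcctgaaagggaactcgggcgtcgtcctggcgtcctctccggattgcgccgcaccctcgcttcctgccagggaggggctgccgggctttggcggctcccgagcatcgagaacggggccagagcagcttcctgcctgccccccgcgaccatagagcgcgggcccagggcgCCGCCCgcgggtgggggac

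The CArG box, the sequence SRF binds, was in none of the 14 windows of these genes and in 1.16% of all 35116 windows, searched on both strands over 250 bases. The full androgen response element, AGAACA followed after any 3 bases by TGTTCT, was in none of the 14 and in 0.00285% of all. Its core AGAACA was in 1 of 14, a window of ITGA6 with matches 195 and 81 bases before the start site, against 12.4% of all windows. GGGCGG was in 7 of 14, of 6 genes (42.6% of all windows), GGAAGT in 5 of 14, of ITGAV, ITGB1 and ITGB5 (19.5%), and GGAATG, the core bound by TEAD factors, in 2 of 14, of ITGB1 and PXN (11.9%). A match is a run of letters in this window, and no binding was measured.

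ITGAV, the alpha chain of the vitronectin receptors, which pairs with ITGB5 among others, moved more than any other tested member. It had 1 probe set (202351_at; gene on chromosome 2, 186590056 to 186680901, GRCh38.p14), and its log2 signals were 11.08, 11.08 and 10.99 in control vehicle and 13.38, 13.32 and 13.30 in control R1881. In SRF-silenced cells they were 9.14, 8.91 and 9.21 in vehicle and 11.54, 11.90 and 11.89 in R1881. All 4 groups were apart, in the order SRF siRNA vehicle, control vehicle, SRF siRNA R1881, control R1881, and each neighbouring pair of means differed by more than the larger of their SDs.

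R1881 raised ITGAV by 2.28 ± 0.11 with control siRNA and by 2.69 ± 0.11 with SRF siRNA (log2 change ± SE; adjusted p = 1.03e-08 and 3.74e-09), that is 4.85-fold and 6.45-fold. Silencing lowered it, by a log2 change of -1.97 ± 0.11 in vehicle, which left 25.6% of the signal, and of -1.55 ± 0.11 in R1881, which left 34.0% (adjusted p = 9.94e-08 and 4.86e-07). Both effects thus ran against each other, and silenced cells given R1881 lay 0.72 above control cells given vehicle. The difference between the R1881 effects was 0.41 ± 0.16, with an unadjusted 95% interval of 0.07 to 0.75, and did not pass (adjusted p = 0.0917). It passed in 3 of 24 alternatives. One was the fit with the GAPDH difference as a covariate, at 0.59 ± 0.17 (adjusted p = 0.0367), in which the R1881 effect in control cells was 1.98 ± 0.19. In bulk RNA, fewer cells with a transcript and less of it per cell cannot be told apart.

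ITGB5, the beta chain that pairs only with alpha-v, rose with R1881 under either siRNA and was not called for silencing with all arrays and the main settings. Its brightest probe set (201125_s_at; gene on chromosome 3, 124761948 to 124901418) read 6.75, 6.61 and 6.52 in control vehicle and 7.81, 7.85 and 7.75 in control R1881. In silenced cells it read 6.80, 6.86 and 6.97 in vehicle and 7.89, 7.80 and 8.11 in R1881. R1881 and vehicle arrays did not overlap under either siRNA, whereas the R1881 arrays of the siRNAs overlapped.

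The R1881 effects were 1.18 ± 0.10 and 1.06 ± 0.10 (log2 change ± SE; adjusted p = 9.33e-07 and 3.50e-06), and their difference was -0.12 with a 95% interval of -0.42 to 0.18 (adjusted p = 0.602). Silencing gave 0.25 ± 0.10 in vehicle and 0.13 ± 0.10 in R1881 (adjusted p = 0.0535 and 0.296), where its partner ITGAV was called lower. The change in vehicle was called higher in 5 of 24 alternatives. A second ITGB5 probe set (214020_x_at) also rose with R1881, by 0.50 ± 0.12 and 0.44 ± 0.12 (adjusted p = 0.00428 and 0.0115). With the GAPDH covariate these rises were 0.18 ± 0.21 and 0.31 ± 0.13, and neither passed (adjusted p = 0.550 and 0.0849). The other ITGB5 probe sets did not pass the filter. Of these 201124_at had mean log2 signals of 2.34 in control vehicle and 3.93 in control R1881 and 2.61 and 3.33 in silenced cells. Fitted without the filter, its changes were 1.59 and 0.71 (adjusted p = 0.000248 and 0.0344), at levels where the size depends on the background estimate.

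ITGA2, the alpha chain of the main collagen receptor of epithelia, was dim and rose with R1881. Its passing probe set (227314_at; gene on chromosome 5, 52989352 to 53094779) had log2 signals of 4.26, 4.04 and 4.07 in control vehicle and 4.71, 5.04 and 5.82 in control R1881. In silenced cells the signals were 3.03, 3.68 and 3.62 in vehicle and 4.57, 4.91 and 4.49 in R1881. Silenced vehicle arrays were lowest and lay under 4 on all 3 arrays, and the R1881 groups overlapped each other.

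R1881 raised ITGA2 by 1.06 ± 0.25 in control and 1.21 ± 0.25 in silenced cells (log2 change ± SE; adjusted p = 0.00357 and 0.00195). Silencing in vehicle gave -0.68 ± 0.25 (adjusted p = 0.0422), a call lost with the GAPDH covariate, at -0.59 ± 0.39 (adjusted p = 0.271), and when values under 4 were set to 4, at -0.12 ± 0.22 (adjusted p = 0.678). It was also lost, at a larger -0.77 ± 0.30, without the third array of both SRF siRNA groups (adjusted p = 0.0599). Leaving out any of the 3 control vehicle arrays, the second control R1881 array, the first or the third SRF siRNA vehicle array or the first SRF siRNA R1881 array ended it too, with values of -0.77 to -0.47. The value was -0.53 ± 0.25 in R1881 (adjusted p = 0.0992). With the GAPDH covariate the rise in control cells was 1.20 ± 0.49 and did not pass (adjusted p = 0.0856).

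**Figure D1:**
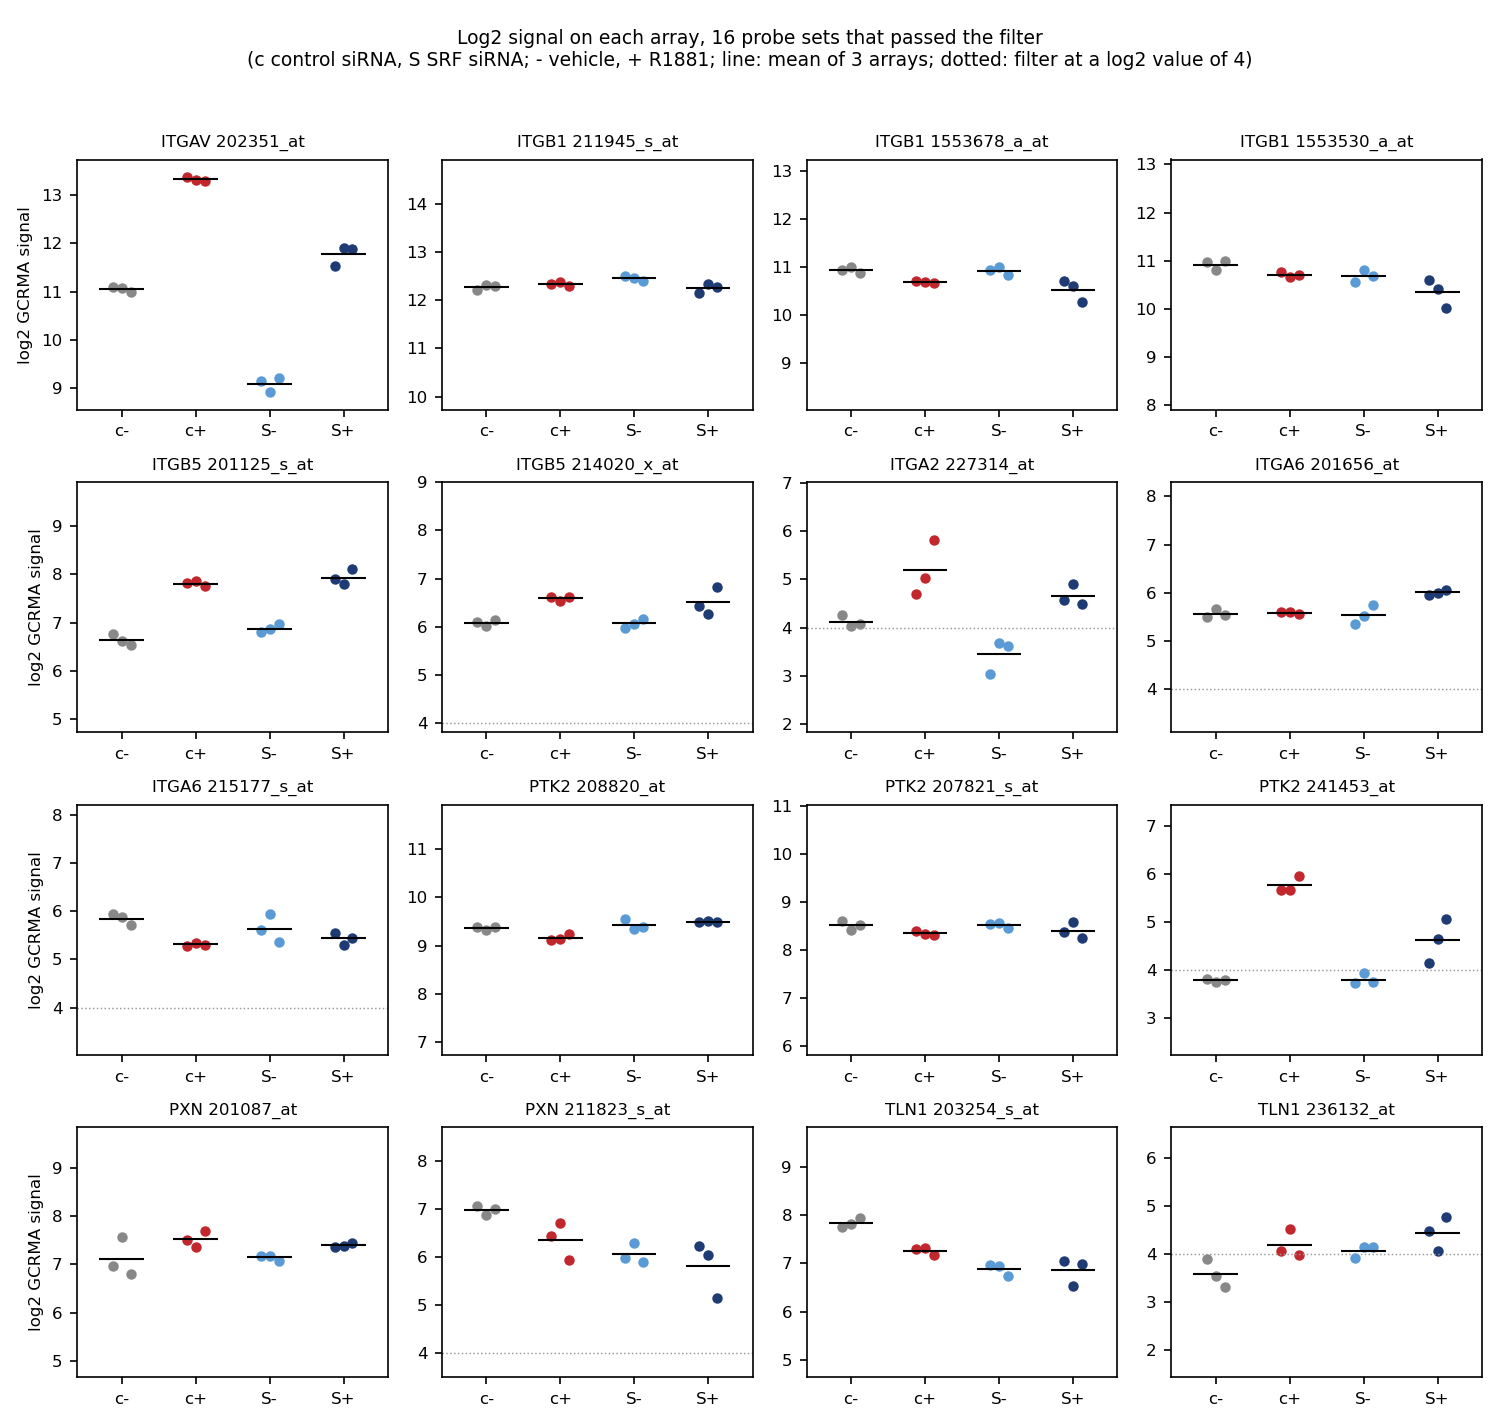
Each panel gives the log2 GCRMA signal of 1 of the 16 probe sets that passed the filter on the 12 arrays (points, with the mean of each group as a line; c control siRNA, S SRF siRNA, - vehicle, + R1881; every axis spans the same number of log2 units). ITGAV covers the widest range, from a mean of 9.09 in SRF siRNA vehicle to 13.33 in control R1881, and the brightest ITGB1 probe set stays within 0.21.

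ITGB1, the beta chain shared by the collagen, laminin and fibronectin receptors, was bright and had few calls. The brightest of its 7 probe sets (211945_s_at; gene on chromosome 10, 32900318 to 32958230) had log2 signals of 12.21, 12.33 and 12.31 in control vehicle and 12.34, 12.39 and 12.30 in control R1881, and of 12.51, 12.47 and 12.39 and 12.14, 12.34 and 12.27 in the same order after silencing. Group means spanned 0.21, and the only call was a fall with R1881 in silenced cells, at -0.21 ± 0.08 (adjusted p = 0.0389). Without the third array of both SRF siRNA groups the value was larger, -0.25 ± 0.09, and did not pass (adjusted p = 0.0606). The call was also lost on leaving out any control R1881 array, the first or second SRF siRNA vehicle array, or the first or the third SRF siRNA R1881 array, with values of -0.22 to -0.16, and with the replicate number as a block (adjusted p = 0.0516). The other passing probe sets, 1553678_a_at and 1553530_a_at, had group means of 10.53 to 10.93 and of 10.35 to 10.92. Of these, 1553678_a_at fell with R1881 in silenced cells, by -0.39 ± 0.11 (adjusted p = 0.00967). With the GAPDH covariate that fall was -0.25 ± 0.10 and did not pass (adjusted p = 0.0744). The probe set 1553530_a_at was called lower after silencing in R1881, at -0.36 ± 0.13 (adjusted p = 0.0374), and not without the third arrays, at -0.19 ± 0.11 (adjusted p = 0.159), nor without any control R1881 array or the second SRF siRNA R1881 array, at -0.40 to -0.33. On both of them the third SRF siRNA R1881 array, the array that stood apart in the ACTB measure, was the lowest of all 12, at 10.27 and 10.02. The other 4 ITGB1 probe sets had overall means of 2.38 to 2.97.

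ITGA6, the alpha chain of laminin receptors, gave a different picture by probe set. The probe set 201656_at (gene on chromosome 2, 172427336 to 172506459) read 5.50, 5.66 and 5.53 in control vehicle, 5.59, 5.60 and 5.57 in control R1881, 5.34, 5.53 and 5.74 in SRF siRNA vehicle and 5.96, 6.0 and 6.06 in SRF siRNA R1881. Only the last group lay above all others. R1881 raised it in silenced cells, by 0.47 ± 0.10 (adjusted p = 0.00168), while the value in control cells was 0.03 ± 0.10 (adjusted p = 0.837). The difference of the effects was 0.45 ± 0.14 (adjusted p = 0.0404), and that call was lost on leaving out any array but the first control vehicle and the third SRF siRNA vehicle array, with values of 0.35 to 0.47, and with arrays shifted to the same median (adjusted p = 0.0602). The second probe set, 215177_s_at, fell with R1881 in control cells instead, by -0.54 ± 0.13 (adjusted p = 0.00416). With the GAPDH covariate that fall was -0.38 ± 0.25 and did not pass (adjusted p = 0.277). Across the 12 arrays these probe sets of the same gene correlated at a Pearson r of -0.39.

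ITGA1 and ITGA3, alpha chains that pair with ITGB1, were near background. The 3 ITGA1 probe sets had overall mean log2 signals of 2.49 to 3.34. The brightest (214660_at) read 3.15, 3.37 and 3.70 in control vehicle, 3.28, 3.40 and 3.34 in control R1881, 3.35, 3.25 and 3.25 in SRF siRNA vehicle and 3.34, 3.34 and 3.32 in SRF siRNA R1881, and the groups overlapped. PELO lies at the start of ITGA1 in RefSeq, and ITGA1 reads are given here as the platform table names them. The ITGA3 probe set (201474_s_at) read 2.43 to 2.55 on the 9 arrays of the first 3 groups and 2.86, 2.77 and 2.76 in SRF siRNA R1881. In a fit of all probe sets this was a change of 0.29 ± 0.04 with R1881 in silenced cells (adjusted p = 0.000289), at a level where the probe set was not above the filter on any array.

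TLN1, talin, fell after SRF silencing. Its brightest probe set (203254_s_at; gene on chromosome 9, 35696948 to 35732195) had log2 signals of 7.75, 7.81 and 7.93 in control vehicle and 7.31, 7.31 and 7.17 in control R1881. After silencing they were 6.97, 6.95 and 6.75 in vehicle and 7.05, 6.53 and 6.99 in R1881. Control vehicle lay above every other array, control R1881 came next, and the silenced groups overlapped each other.

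Silencing lowered TLN1 by a log2 change of -0.94 ± 0.13 in vehicle, which left 52.0% of the signal, and of -0.41 ± 0.13 in R1881, which left 75.4% (adjusted p = 8.53e-05 and 0.0182). The call in R1881 was lost without the second SRF siRNA R1881 array, the lowest of its group, at -0.24 ± 0.10 (adjusted p = 0.0633), and without the first or second control R1881 array, at -0.38 ± 0.15 each. R1881 lowered it by -0.57 ± 0.13 in control cells (adjusted p = 0.00245), and the value in silenced cells was -0.03 ± 0.13 (adjusted p = 0.851). The difference of the R1881 effects, 0.54 ± 0.18, did not pass (adjusted p = 0.0599). It passed in 3 of 24 alternatives, among them without the second SRF siRNA R1881 array. With the GAPDH covariate the fall in vehicle after silencing was -0.94 ± 0.20 (adjusted p = 0.00395), and the R1881 change in control cells was -0.56 ± 0.25 and did not pass (adjusted p = 0.108). A dim TLN1 probe set, 236132_at, ran the other way, with means of 3.58 in control vehicle and 4.19, 4.06 and 4.43 in control R1881, SRF siRNA vehicle and SRF siRNA R1881. Its R1881 rise of 0.61 ± 0.20 in control cells (adjusted p = 0.0217) was lost when values under 4 were set to 4, at 0.19 ± 0.17, with the GAPDH covariate, at 0.46 ± 0.39 (adjusted p = 0.397), and without the filter (adjusted p = 0.0837). It was also lost without the second or the third control vehicle array or the second control R1881 array, at 0.44 to 0.59, and all control vehicle arrays of this probe set were under 4. The third TLN1 probe set had a mean of 2.21.

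PTK2, the gene of FAK, changed by at most 0.33 on the log2 scale in its bright probe sets, and a dim probe set rose with R1881. The brightest (208820_at) read 9.38, 9.33 and 9.39 in control vehicle, 9.11, 9.14 and 9.23 in control R1881, 9.54, 9.34 and 9.39 in SRF siRNA vehicle and 9.48, 9.51 and 9.49 in SRF siRNA R1881. Control R1881 lay under all other arrays. The R1881 change in control cells was -0.20 ± 0.07 (adjusted p = 0.0341, and 0.0532 with the replicate number as a block). That call was lost with the GAPDH covariate, at -0.21 ± 0.14 (adjusted p = 0.284), and without the first or the third control vehicle array or the first or second control R1881 array, at -0.20 to -0.18. Silencing in R1881 raised it by 0.33 ± 0.07 (adjusted p = 0.00243). The next probe set, 207821_s_at, had group means of 8.35 to 8.53 and was called in no comparison.

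The dim PTK2 probe set 241453_at had log2 signals of 3.82, 3.76 and 3.80 in control vehicle and 5.67, 5.66 and 5.95 in control R1881. In silenced cells it read 3.73, 3.94 and 3.75 in vehicle and 4.15, 4.65 and 5.07 in R1881. All R1881 arrays lay above all vehicle arrays, and the silenced ones lay below the control ones. R1881 raised it by 1.97 ± 0.18 in control and 0.82 ± 0.18 in silenced cells (log2 change ± SE; adjusted p = 2.67e-06 and 0.00317), and the effects differed by -1.15 ± 0.26 (adjusted p = 0.00947). The probe set passed the filter only through its 6 R1881 arrays, all vehicle arrays being under 4, so a rise with R1881 was built into its being tested and its size depends on the background estimate. Fitted with all probe sets and no filter, the adjusted p-values were 5.22e-05 and 0.0165 for the rises and 0.0398 for the difference. Without the third array of both SRF siRNA groups the rise in silenced cells was 0.56 ± 0.17 (adjusted p = 0.0224). The difference was then -1.41 ± 0.21 (adjusted p = 0.00253), and with the GAPDH covariate it was -0.77 ± 0.25 (adjusted p = 0.0592). This probe set correlated at a Pearson r of -0.62 and -0.67 with the bright PTK2 probe sets over the 12 arrays. The platform table gives no accession for it, and which PTK2 transcript it reads was not tested. The fourth PTK2 probe set had a mean of 3.16.

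PXN, paxillin, also split by probe set. The brightest (201087_at; gene on chromosome 12, 120210447 to 120265730) read 6.96, 7.58 and 6.81 in control vehicle, 7.50, 7.36 and 7.70 in control R1881, 7.18, 7.18 and 7.07 in SRF siRNA vehicle and 7.37, 7.38 and 7.44 in SRF siRNA R1881. The control groups overlapped, and it was called in no comparison of the main fit, with R1881 changes of 0.40 ± 0.16 and 0.25 ± 0.16 (adjusted p = 0.0535 and 0.234). The change in control cells was called higher in 6 of 24 alternatives, among them without the second control vehicle array, at 7.58. That in silenced cells was called higher in 1 of 24. The other, 211823_s_at, had means of 6.98 ± 0.09 in control vehicle, 6.36 ± 0.39 in control R1881, 6.05 ± 0.21 in SRF siRNA vehicle and 5.80 ± 0.58 in SRF siRNA R1881 (SD, n = 3 each). It fell after silencing in vehicle, by -0.93 ± 0.26 (adjusted p = 0.0108), and that value was -0.16 ± 0.23 with the GAPDH covariate (adjusted p = 0.645). Its lowest array was again the third SRF siRNA R1881 array, at 5.14.

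**Figure D2:**
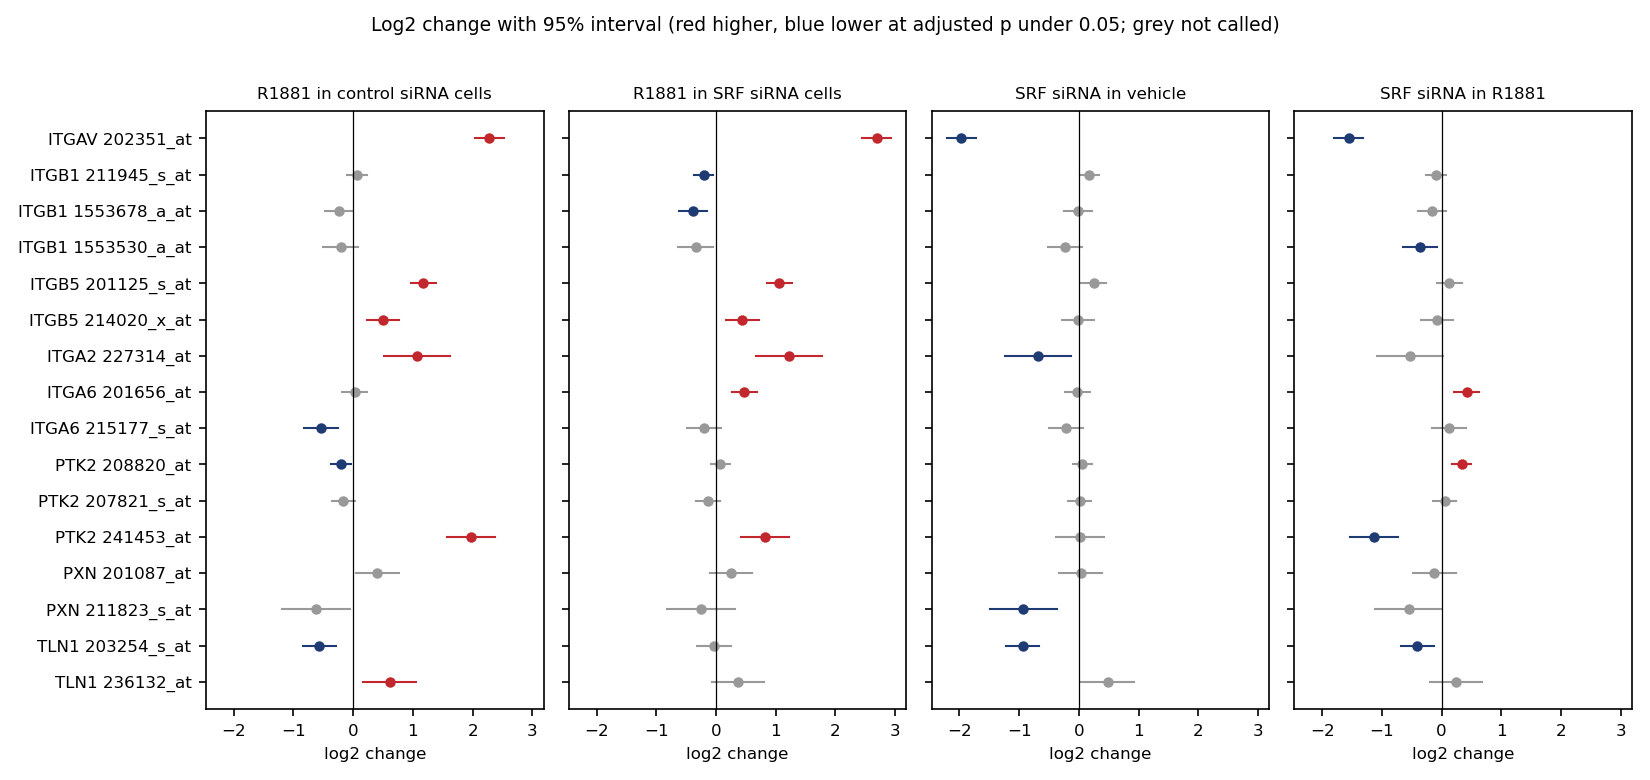
Points give the log2 change of each of the 16 probe sets in the 4 comparisons and bars its unadjusted 95% interval (red higher and blue lower at an adjusted p under 0.05, grey not called). ITGAV is the only probe set called in all 4 panels, at 2.28 and 2.69 for R1881 and -1.97 and -1.55 for SRF siRNA.

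Over the 16 probe sets, R1881 in control cells raised 6 and lowered 3, against 24.0% and 31.8% of all probe sets tested. In silenced cells it raised 6 and lowered 2, against 20.8% and 26.7%. Both counts of 6 include PTK2 241453_at, which was tested only because of its R1881 arrays. Silencing raised none and lowered 4 in vehicle (26.4% and 22.7% of all) and raised 2 and lowered 4 in R1881 (29.0% and 24.2% of all). The median log2 change of the 16 was 0.05 for R1881 in control cells and 0.16 in silenced cells, against -0.07 and -0.06 over all probe sets. For silencing it was -0.01 in vehicle and -0.11 in R1881, against 0.03 and 0.04. Shares called in either direction were thus near those of the whole array for R1881, with 9 of 16 against 55.8% in control cells and 8 of 16 against 47.5% in silenced cells, and the counts for silencing were 4 of 16 against 49.1% and 6 of 16 against 53.1%. By gene, each taken by its brightest passing probe set, 5 of 8 were called for R1881 in control cells (59.1% of all genes tested), 5 of 8 in silenced cells (50.8%), 1 of 8 for the difference of effects (20.7%), 3 of 8 for silencing in vehicle (53.1%) and 4 of 8 in R1881 (56.9%). Probe sets of the same gene share a target and are not independent, and the comparisons share arrays in pairs.

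Arrays of the groups compared did not overlap for 13 of 16 probe sets for R1881 in control cells (64.1% of all probe sets tested) and for 9 of 16 in silenced cells (55.3%). Both of these counts include PTK2 241453_at, which was tested only because of its R1881 arrays. For silencing they did not overlap for 7 of 16 in vehicle (57.3%) and 6 of 16 in R1881 (62.1%).

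With the GAPDH difference as a covariate, 3 of the 16 were called for R1881 in control cells, all higher (ITGAV, the brightest ITGB5 probe set and the dim PTK2 probe set), and 34.2% of all probe sets. The covariate differed between those groups without overlap, so what it removes and what R1881 did cannot be told apart in that fit. The dim PTK2 probe set among the 3 was tested only because of its R1881 arrays. For silencing in vehicle the count was 2 of 16, ITGAV and the brightest TLN1 probe set, both lower, against 33.9% of all probe sets. The covariate differed without overlap between these vehicle groups too, so what it removes and what silencing did cannot be told apart either.

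The R1881 effect itself was called different between silenced and control cells for 2 of 16 probe sets, ITGA6 201656_at upward and PTK2 241453_at downward. Of all probe sets tested, 9.79% and 8.84% differed in those directions. The ITGA6 call was lost in 14 of 24 alternatives, and PTK2 241453_at was tested only because of its R1881 arrays. For the other 14 probe sets the difference was not called, with values of -0.27 to 0.54 on the log2 scale. The lowest adjusted p-values among those 14 were 0.0599 for TLN1 203254_s_at, 0.0911 for PTK2 208820_at and 0.0917 for ITGAV, all with differences above 0.

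**Figure D3:**
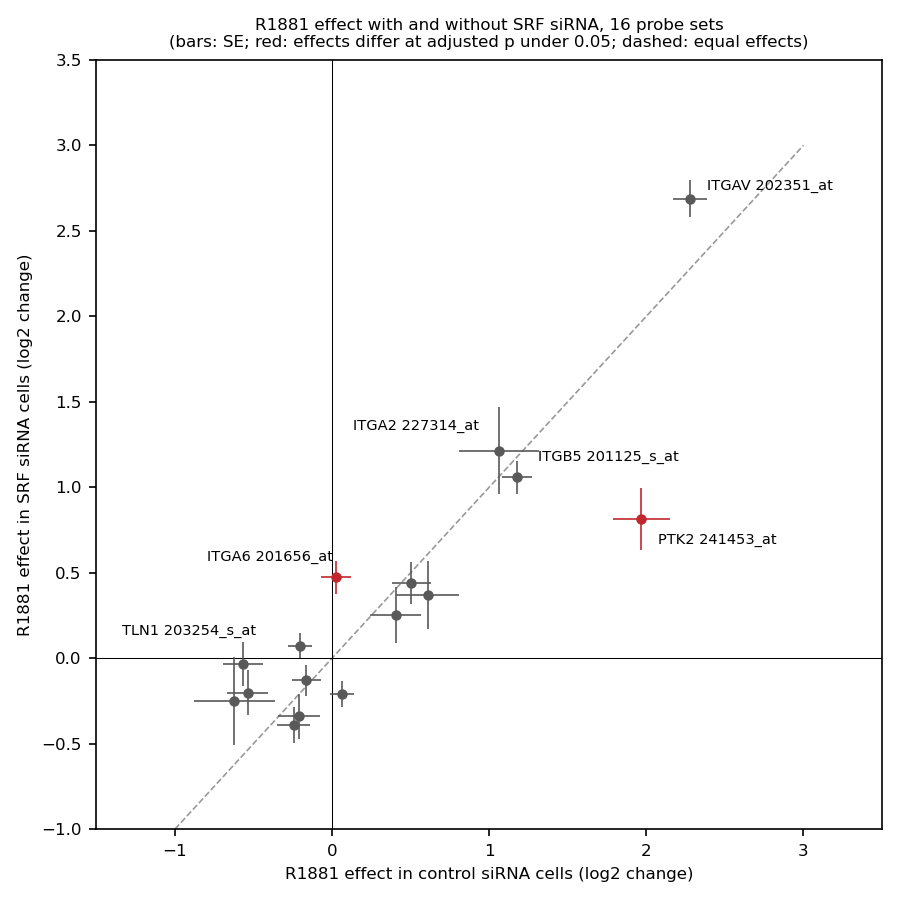
Each of the 16 probe sets is placed by its R1881 effect (log2 change) in control siRNA cells on the horizontal axis and in SRF siRNA cells on the vertical axis, with SE bars and a dashed line of equal effects. ITGAV lies above the line at 2.28 and 2.69, and PTK2 241453_at, in red because its effects differ, lies below it at 1.97 and 0.82.

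ITGAV had the widest range of group means among the members, and the 5 genes most like it over the 12 arrays were PLPP5, AZGP1, MPC2, STK39 and INPP4B, with Pearson correlations of log2 signals from 0.993 to 0.997. The points are arrays of 4 groups, so the likeness is mostly one of group means. STK39, for example, had means of 9.84 in control vehicle, 12.73 in control R1881, 7.58 in SRF siRNA vehicle and 10.47 in SRF siRNA R1881.

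The matrix proteins that integrins bind moved in both directions. Of 34 ligand genes 31 had a probe set and 15 were tested, each by its brightest passing probe set. R1881 raised 3 and lowered 8 in control cells (26.1% and 32.9% of all 10265 genes) and raised 3 and lowered 5 in silenced cells (24.4% and 26.4%), with list medians of -0.50 and -0.14 against -0.05 and -0.03 over all genes. The 3 raised in control cells include LAMA1, which was tested only because of its control R1881 arrays. COL5A2 and COL3A1, fibrillar collagens, fell in control cells, at -4.52 ± 0.12 and -3.48 ± 0.19, and after silencing, at -4.59 ± 0.12 and -3.84 ± 0.19 (log2 change ± SE). In control R1881 their means were 3.49 and 2.97, under the filter level, so the sizes of these falls in control cells depend on the background estimate. COL3A1 had a mean of 4.07 in SRF siRNA R1881, near the filter level, so the size of its fall in silenced cells is limited likewise. FN1, fibronectin, which alpha-v and beta-1 integrins bind, fell from 11.24 ± 0.17 to 8.32 ± 0.12 in control cells and from 10.69 ± 0.02 to 9.56 ± 0.14 in silenced cells (SD, n = 3 each). LAMC1, a laminin chain, rose by 1.52 ± 0.09 and 1.90 ± 0.09.

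For other ligands the R1881 effect differed between the siRNAs. CCN1, a matrix protein bound by alpha-v integrins, rose by 1.59 ± 0.11 in control cells, with 0.15 in silenced cells (difference -1.44 ± 0.16; adjusted p = 0.000116). LAMA1, a laminin chain, had means of 2.12 in control vehicle, 4.65 in control R1881, 2.11 in SRF siRNA vehicle and 2.18 in SRF siRNA R1881. It passed the filter only through the control R1881 arrays, and the other groups were at background, so no size is read from it. THBS1, thrombospondin, rose by 2.05 ± 0.19 in silenced cells, with 0.31 in control cells, where its means of 3.58 and 3.89 were under the filter level (difference 1.74 ± 0.27; adjusted p = 0.00112). In all the difference was above 0 for 6 of 15 ligands and below 0 for 2 (11.4% and 9.28% of all genes). The 2 include LAMA1, which was tested only because of its control R1881 arrays. Silencing raised 5 and lowered 5 of the 15 in vehicle (29.3% and 23.8% of all genes) and raised 6 and lowered 3 in R1881 (32.4% and 24.5%). The 3 lowered in R1881 include LAMA1 as well, with the same limit. The collagen chain COL4A5 fell by -2.72 ± 0.13 and -1.60 ± 0.13, and COL5A2 rose by 3.41 ± 0.12 and 3.34 ± 0.12. The COL5A2 rise in R1881 started from control R1881, where its mean was under the filter level, so its size depends on the background estimate. List medians for silencing were -0.02 and 0.19, against 0.04 and 0.06 over all genes.

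Among 39 activators and adaptors of focal adhesions 26 were tested, and they moved both ways. R1881 raised 11 and lowered 7 in control cells and raised 8 and lowered 9 in silenced cells, with medians of 0.17 and -0.04 (shares of all genes 26.1% and 32.9%, then 24.4% and 26.4%). VCL, vinculin, which binds talin, rose by 1.03 ± 0.08 and 0.76 ± 0.08, ILK, integrin-linked kinase, by 0.81 ± 0.08 and 0.73 ± 0.08, and the scaffold NEDD9 fell by -1.46 ± 0.14 and -1.16 ± 0.14. ZYX, zyxin, a stress fibre protein, rose by 0.53 ± 0.10 in control cells and fell by -0.66 ± 0.10 in silenced cells, a difference of -1.18 ± 0.14 (adjusted p = 0.000176). The effect differed for 6 of 26, with 2 higher and 4 lower (20.7% of all genes differed). Silencing raised 12 and lowered 8 in vehicle (29.3% and 23.8% of all genes) and raised 7 and lowered 9 in R1881 (32.4% and 24.5%), with medians of 0.22 and 0.10. LPP, a zyxin relative, fell most, by -1.63 ± 0.10 and -1.45 ± 0.10.

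Of 21 membrane partners and trafficking genes 17 were tested. R1881 raised 6 and lowered 4 in control cells (26.1% and 32.9% of all genes) and raised 4 and lowered 2 in silenced cells (24.4% and 26.4%). Silencing raised 3 and lowered 7 in vehicle (29.3% and 23.8%) and raised 5 and lowered 8 in R1881 (32.4% and 24.5%). CD9, a tetraspanin that associates with integrins, fell by -0.85 ± 0.10 and -0.52 ± 0.10 after silencing, and SNX17, which returns beta-1 integrins to the surface, by -0.76 ± 0.08 and -0.98 ± 0.08. CD151, the tetraspanin of laminin-binding integrins, rose with R1881 by 0.83 ± 0.13 and 0.90 ± 0.13. The list medians were 0.14 and 0.06 for R1881 and -0.22 and -0.23 for silencing. The R1881 effect differed upward for 3 of 17 and downward for 1, TSPAN1, at -1.27 ± 0.17 (11.4% and 9.28% of all genes).

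Of the 19 other integrin chains 18 had a probe set and 3 were tested, ITGA5, ITGAE and ITGAL, with none called for R1881 in control cells. ITGAE fell with R1881 in silenced cells by -0.29 ± 0.08, and ITGA5, the fibronectin receptor chain, fell with silencing in R1881 by -0.24 ± 0.08. The list medians were -0.04 and -0.03 for R1881 and -0.02 and -0.14 for silencing.

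**Figure D4:**
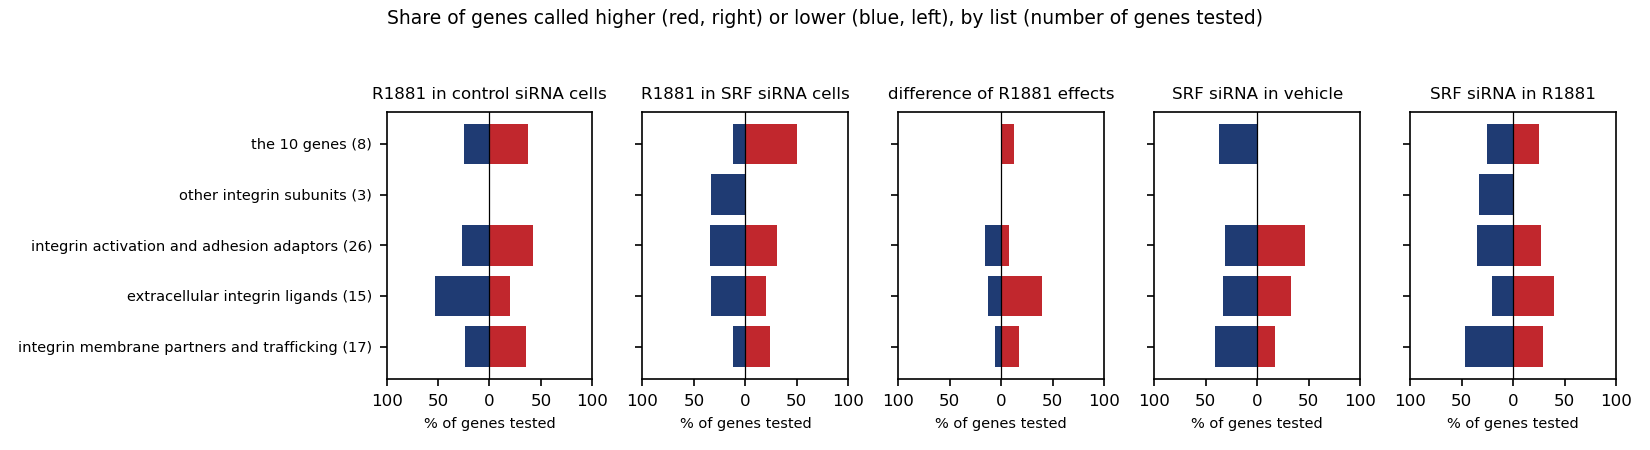
Bars give the share of genes tested in each list that were called higher (red, to the right) or lower (blue, to the left) at an adjusted p under 0.05, with the number of genes tested in parentheses, in the 5 comparisons. The ligands show 8 of 15 genes lower and 3 higher for R1881 in control cells, and the adaptors show 11 of 26 higher and 7 lower. The 3 higher ligands include LAMA1, which was tested only because of its control R1881 arrays.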

How the data were processed

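The deposited values are log2 signals, 1 per probe set and array, made by the authors with GCRMA, per the submitters' processing notes. The version is not given in the sources used here. GCRMA subtracts a background modelled from probe sequence, so dim probe sets lie near log2 values of 2 to 3 and the size of a change from such a level depends on that model. Array medians ran from 2.97 to 3.06, and 37.3% to 38.0% of probe sets were above 4. No further normalization was applied, and the number of arrays limits the precision. Detection calls and scanner files were not used here.

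Of 54675 probe sets 41091 carried 1 gene symbol in the platform table, 1801 several and 11721 none, and 62 were control sets. Of the 41091, 41037 were matched to RefSeq by gene number. With limma 3.58.1 in R 4.3.3, 1 mean per group was estimated for the 21526 non-control probe sets above 4 on at least 3 arrays, with Benjamini-Hochberg adjustment over all of them. Called means an adjusted p under 0.05. SE is the moderated standard error and SD the spread of 3 arrays. Lists used the passing probe set with the highest mean of each of 10265 genes. The code was checked on simulated arrays.

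Every member was named, with values on every array for probe sets called with a log2 change of at least 1 and for the brightest of each other gene. Pathway examples came from the 3 largest called changes of a list in each direction. The members and lists were chosen with earlier results of these data known. Alternatives changed the filter, a floor, the normalization, the variance model, the arrays, a replicate block, a GAPDH covariate and the threshold. Plots used matplotlib 3.10.9 (Python 3.11.15).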

Additional observations from a re-analysis of the deposited data

Results flagged for a closer look

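The test of the difference between the R1881 effects in silenced and control cells called 2 member probe sets. For ITGA6 201656_at the difference was 0.45 on the log2 scale, with effects of 0.03 in control and 0.47 in silenced cells (adjusted p = 0.0404), a call lost in 14 of 24 alternatives. The other ITGA6 probe set was not called (adjusted p = 0.243). For PTK2 241453_at it was -1.15, with effects of 1.97 and 0.82 (adjusted p = 0.00947). That probe set passed the filter only through its R1881 arrays, and the value was -0.77 ± 0.25 with the GAPDH covariate (adjusted p = 0.0592).

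The R1881 effect differed for 18 other genes of the pathway lists as well. Tested were 15 ligands, 26 adaptors, 17 membrane partners and 3 other integrin chains, and of all genes tested 20.7% differed. Among ligands it was above 0 for COL6A2 (1.82), FN1 (1.79), THBS1 (1.74), COL4A5 (1.12), LAMB2 (0.80) and COL6A1 (0.42), and below 0 for CCN1 (-1.44) and LAMA1 (-2.45), the latter at background in 3 of its 4 groups. Among adaptors it was above 0 for PARVB (0.88) and DOCK1 (0.86) and below 0 for ZYX (-1.18), CSRP1 (-0.99), PARVA (-0.65) and ENAH (-0.60). Among membrane partners it was above 0 for RAB25 (0.45), BSG (0.39) and CD47 (0.35) and below 0 for TSPAN1 (-1.27).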

How the results depend on the processing

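The main counts of member probe sets called were 9 of 16 for R1881 in control cells, 8 in silenced cells, 2 for the difference of effects, 4 for silencing in vehicle and 6 for silencing in R1881. Leaving out each array in turn gave 7 to 11, 7 to 9, 1 to 2, 3 to 6 and 4 to 7. Shares of all were then 50.4% to 57.1%, 41.2% to 47.5%, 14.8% to 17.4%, 43.6% to 50.7% and 47.2% to 53.4%. The GAPDH covariate gave 3 for R1881 in control cells and 2 for silencing in vehicle, against 34.2% and 33.9% of all probe sets. For R1881 in silenced cells, taking 1 probe set per gene gave 5, of 8 genes, on fewer features (53.1% of all genes). For the difference of effects, arrays shifted to the same median gave 1 (17.4% of all) and a variance model with trend and robust gave 4 (21.1%). An adjusted p under 0.01 gave 1 for that difference (9.37%) and 2 for silencing in vehicle (36.1%). The cause of these changes was not tested. Of the 29 calls, 18 were kept and 11 lost with the GAPDH covariate, and 26 were kept without the third array of both SRF siRNA groups. No call changed sign under any alternative run. With the replicate block the counts were 9, 7, 2, 4 and 7, and 27 of 29 calls were kept. Shares of all were 54.8%, 46.3%, 16.7%, 47.9% and 52.1% with the block. The replicate numbers did not pair the arrays: deviations of same-numbered arrays correlated at -0.18 to 0.19 (median 0.01), and 4 of 12 arrays correlated best with their own number. Probe sets near a log2 value of 4 are limited by the background.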
